A study of Mus musculus with 16 samples.

Results

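Nuclear receptors are transcription factors that many lipids, hormones and vitamins switch on by binding to them. The retinoid X receptors (RXRα, RXRβ and RXRγ) are the shared heterodimer partners of most receptors for lipid ligands, among them the liver X receptor LXRα, the peroxisome proliferator-activated receptors (PPARs) and the vitamin D receptor. In fat cells the PPARγ and RXRα pair drives the adipocyte programme, and other receptors either feed into it or hold it back. The 10 genes described here are the 3 RXR genes (Rxra, Rxrb and Rxrg), the lipid receptors Nr1h3 (LXRα), Ppara and Ppard, the vitamin D receptor gene Vdr, the orphan receptor genes Nr2f2 (COUP-TFII) and Esrra (ERRα), and Rora (RORα), an orphan receptor of the clock and of lipid metabolism. They were taken from a list of receptors that partner or compete in adipogenesis, not by their values, and are 10 of the 22380 protein-coding genes of mouse build mm9 whose neighbourhood was measured. For each gene the window was the gene body with 50 kb on either side.

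The study asked how SETD5, a protein found with the NCoR and HDAC3 corepressors, affects enhancers when mouse 3T3-L1 preadipocytes, a fibroblast line that becomes adipocytes in culture, are induced with insulin, dexamethasone and isobutylmethylxanthine. H3K27ac, the histone mark of active enhancers and promoters, was profiled at 0 h (day 0, 2 days after confluence) and 48 h (day 2) of induction in cells carrying an empty retrovirus or a retrovirus for V5-tagged SETD5, with replicates A and B of each of these 4 conditions. SETD5-V5 was profiled with the V5 antibody at 0 h and 6 h, also with replicates A and B, and H3K4me1, a mark of primed enhancers, and endogenous SETD5 had 1 library per time point (0 h and 48 h, and 0 h and 6 h). The labels give no virus for the SETD5-V5 libraries of replicate A and for endogenous SETD5, the SETD5 virus for SETD5-V5 replicate B and the same virus for both H3K4me1 libraries, whereas the study's text describes H3K4me1 in 3T3-L1 preadipocytes without naming a virus. For SETD5-V5 that text describes cells carrying the retrovirus for the tagged protein, at both times. The added SETD5 is driven by a retroviral LTR and comes on top of the cells' own protein. The study calls its H3K27ac replicates biological, but no label says whether A and B were separate transductions, so p-values measure only the spread between these libraries.

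The deposited lists hold islands, stretches of enriched 200 bp steps with a score, and no read counts. The measure used here is therefore the length of a window that islands cover, in kb. The number of reads behind each island is not in the lists, and the total reads per library that the study lists were not used here, so the part of depth in these lengths was not tested. The 8 H3K27ac lists held 31292 to 39949 islands over 103 to 122 Mb. The 4 SETD5-V5 lists were far more uneven, with 16054 and 6666 islands at 0 h and 35573 and 27220 at 6 h (A and B), and the H3K4me1 lists had 50276 and 49926 and the endogenous SETD5 lists 2132 and 3293 islands (first and second time point). The start sites of all 6 fibroblast markers examined carried H3K27ac in all 8 lists, and those of the 10 markers of other cell types carried it in none. Of 5 adipocyte markers, 2 had an island at a start site in each 0 h list, all 5 did at 48 h in the empty vector (A and B) and 4 did at 48 h with SETD5 (A and B). Islands belong to a window, not to a gene: all windows but that of Rxra overlapped 1 to 7 other protein-coding genes.

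In the empty-vector cells, H3K27ac spread over the windows of Rxra, Ppara, Nr1h3 and Rora between 0 h and 48 h and withdrew from that of Rxrg. At an adjusted p under 0.05 (limma with Benjamini-Hochberg adjustment over all 17882 windows tested), 4 of the 10 windows gained covered length, where 23.3% of all windows did, and 1 lost it, where 12.9% of all windows did. The median log2 change of the 10 windows was 0.39 and that of all windows 0.15. In the SETD5 cells 2 of the 10 windows gained (14.2% of all windows) and 2 lost covered length (11.0% of all windows). Leaving out empty-vector 48 h replicate A or 0 h replicate B reduced the 4 empty-vector gains to 2, and leaving out SETD5 48 h replicate B left no call in the SETD5 cells in either direction. Without SETD5 0 h replicate B none of the SETD5 losses was called, and without SETD5 0 h replicate A or 48 h replicate A 1 gain and 1 loss remained. The shares of all windows called in these fits without a library are not given here. All log2 changes refer to log2(covered bp + 200).

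**Figure D1:**
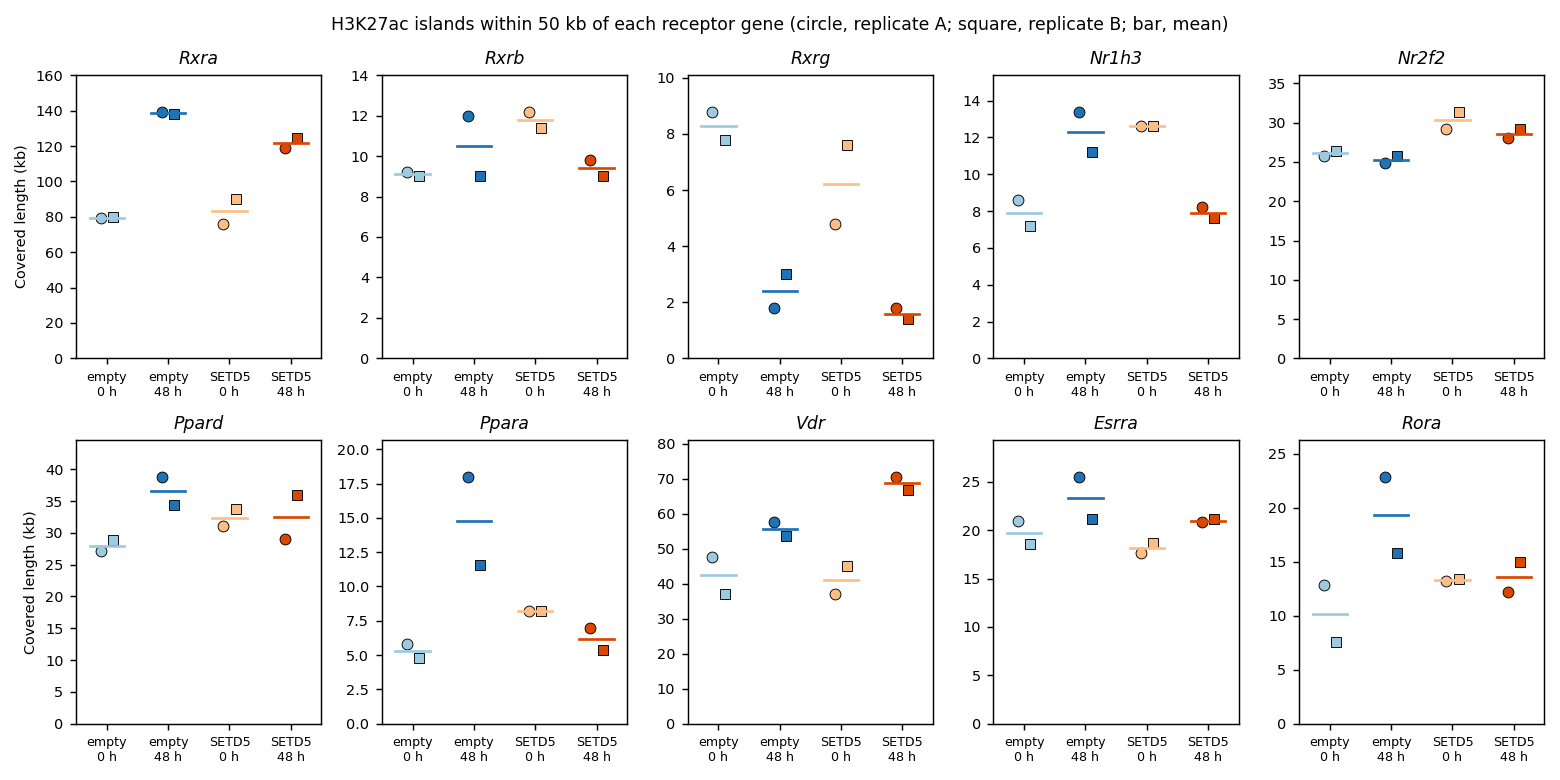
Length covered by H3K27ac islands (y axis, kb, from 0) in the window of each of the 10 receptor genes, for the empty vector and SETD5 at 0 h and 48 h (x axis). Circles are replicate A, squares replicate B and bars their mean; in the Rxra panel both 48 h groups lie above both 0 h groups, and for Rxrg both lie lower.

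Among the RXR genes, Rxra stood out. RXRα is the RXR form that pairs with PPARγ in adipocytes. The gene lies at chr2:27531960-27618477 on the plus strand. Its window of 187 kb was covered by H3K27ac over 79.5 and 79.7 kb in the empty-vector 0 h lists (A and B), 139.5 and 137.9 kb in the empty-vector 48 h lists, 75.8 and 90.3 kb in the SETD5 0 h lists, and 118.9 and 124.5 kb in the SETD5 48 h lists. In both vectors the 48 h libraries lay above the 0 h libraries with no overlap. The log2 change from 0 h to 48 h was 0.80 ± 0.10 (SE, adjusted p = 0.00136 in limma) in the empty vector and 0.56 ± 0.10 (adjusted p = 0.00871 in limma) in the SETD5 cells. The difference between these changes, −0.24 ± 0.14, did not pass the threshold (adjusted p = 0.389 in limma).

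In the empty vector the number of Rxra islands did not rise with their covered length, with 14 and 16 islands at 0 h and 13 and 15 at 48 h. In the SETD5 lists it went from 17 and 15 at 0 h to 19 and 19 at 48 h. The highest-scoring island of the window covered the first Rxra start site in all 8 lists, and measured 7.4 and 11.4 kb in the empty-vector 0 h lists and 57.6 and 40.4 kb in the empty-vector 48 h lists. In the SETD5 cells it measured 9.6 and 8.8 kb at 0 h and 26.0 and 18.8 kb at 48 h. It also climbed in rank: at 0 h in the empty vector 1.12% and 1.07% of the islands of the list scored higher, and at 48 h 0.0479% and 0.0815%. In the SETD5 48 h lists 0.125% and 0.221% scored higher. By covered share, 0.0492% of all protein-coding windows exceeded the Rxra window in each of the empty-vector 48 h lists. H3K4me1 already covered 114 kb of the window at 0 h and covered 141 kb at 48 h.

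Rxrb, the broadly expressed RXR, showed little movement. Its window had 9.2 and 9.0 kb of H3K27ac in the empty-vector 0 h lists, 12 and 9.0 kb at 48 h, 12.2 and 11.4 kb in the SETD5 0 h lists and 9.8 and 9.0 kb at 48 h. No contrast passed the threshold, with a log2 change of 0.19 ± 0.16 in the empty vector (adjusted p = 0.415 in limma). The Rxrb start site lies in a cluster with Slc39a7, H2-Ke6 and Ring1, and the highest-scoring island covered an Rxrb start site in all 8 lists.

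Rxrg, the RXR best known from muscle and brain, went the other way. The gene lies at chr1:169528515-169569754 on the plus strand. Its window held 8.8 and 7.8 kb of H3K27ac in the empty-vector 0 h lists, 1.8 and 3.0 kb at 48 h, 4.8 and 7.6 kb in the SETD5 0 h lists and 1.8 and 1.4 kb at 48 h. Each of the 4 lists at 0 h lay above each of the 4 at 48 h. The log2 change was −1.75 ± 0.32 in the empty vector (adjusted p = 0.00726 in limma) and −1.80 ± 0.32 in the SETD5 cells (adjusted p = 0.00938 in limma). No H3K27ac island touched an Rxrg start site in any list: the islands counted here sat downstream, at 46 to 63 kb from the gene's 5′ end. In the SETD5 cells the call was lost without SETD5 0 h replicate B (adjusted p = 0.0543 in limma) and without SETD5 48 h replicate B (adjusted p = 0.0617 in limma).

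**Figure D2:**
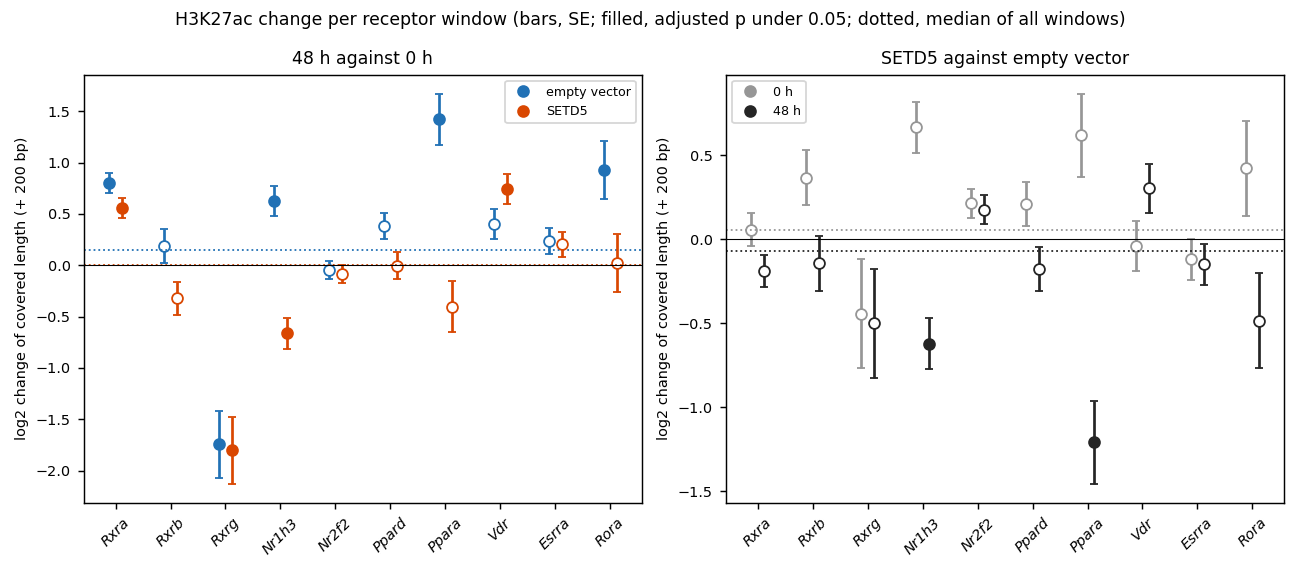
Log2 change of H3K27ac covered length for each receptor window (y axis), at 48 h against 0 h in each vector (left) and for SETD5 against the empty vector at each time (right). Error bars are SE, filled points have an adjusted p under 0.05 and dotted lines are the median of all windows; the empty-vector and SETD5 points of Nr1h3 lie on opposite sides of 0 in the left panel.

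The lipid receptors Nr1h3 and Ppara were the windows in which the vectors differed. LXRα, the product of Nr1h3, is the oxysterol sensor of macrophages, liver and fat. The gene lies at chr2:91024218-91042991 on the minus strand. Its window had 8.6 and 7.2 kb of H3K27ac in the empty-vector 0 h lists, 13.4 and 11.2 kb in the empty-vector 48 h lists, 12.6 and 12.6 kb in the SETD5 0 h lists, and 8.2 and 7.6 kb in the SETD5 48 h lists. Covered length was thus higher at 48 h than at 0 h in both empty-vector replicates and lower in both SETD5 replicates. The log2 change was 0.63 ± 0.15 in the empty vector (adjusted p = 0.0192 in limma) and −0.66 ± 0.15 in the SETD5 cells (adjusted p = 0.0221 in limma).

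PPARα, the receptor that turns on fatty acid oxidation in liver and brown fat, followed a similar course in the empty vector. The gene lies at chr15:85565413-85633249 on the plus strand. Its window had 5.8 and 4.8 kb of H3K27ac in the empty-vector 0 h lists, 18 and 11.6 kb in the empty-vector 48 h lists, 8.2 and 8.2 kb in the SETD5 0 h lists, and 7.0 and 5.4 kb in the SETD5 48 h lists. Both empty-vector 48 h libraries exceeded the other 6. The log2 change was 1.42 ± 0.25 in the empty vector (adjusted p = 0.0056 in limma) and −0.40 ± 0.25 in the SETD5 cells, which did not pass the threshold (adjusted p = 0.29 in limma).

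The SETD5 cells were then set against the empty-vector cells at each time. At 0 h no member passed the threshold in either direction, where 1.42% of all windows were higher with SETD5 and 0.839% lower; 3 members were higher and 0 lower at an unadjusted p under 0.05 in limma. Nr1h3 had the largest difference, 0.67 ± 0.15 (adjusted p = 0.0918 in limma). At 48 h 2 members were lower with SETD5, where 6.66% of all windows were, and 0 members were higher, where 6.06% of all windows were (0 members at an unadjusted p under 0.05 in limma). These were Ppara, by −1.21 ± 0.25 (adjusted p = 0.028 in limma), and Nr1h3, by −0.62 ± 0.15 (adjusted p = 0.0452 in limma). Of the 8 fits that left out a library, 5 lost the Ppara call (adjusted p = 0.0568 to 0.139 in limma) and 6 the Nr1h3 call (adjusted p = 0.0606 to 0.186 in limma), and Nr1h3 was also not called with the replicate block (adjusted p = 0.0561 in limma).

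The same windows passed in the test of the difference between the 48 h changes, SETD5 minus empty vector. It was −1.29 ± 0.21 for Nr1h3 (adjusted p = 0.0254 in limma) and −1.83 ± 0.35 for Ppara (adjusted p = 0.0405 in limma), so that 2 members were lower, where 2.41% of all windows were, and 0 were higher, where 2.13% of all windows were (0 members at an unadjusted p under 0.05 in limma). These calls rest on few libraries: the difference for Nr1h3 lost significance in 6 of the 8 fits that left out a library, both SETD5 times and both replicates included (adjusted p = 0.0696 to 0.102 in limma), and that for Ppara in 7 of 8 (adjusted p = 0.0791 to 0.137 in limma). With windows of 25 kb on either side the differences were −0.77 for Nr1h3 (adjusted p = 0.158 in limma) and −0.52 for Ppara (adjusted p = 0.677 in limma).

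The islands behind these numbers can be located. In the Nr1h3 window the lengthening at 48 h in the empty vector came from an island at a start site inside the gene, 7.4 to 7.7 kb from its 5′ end, which grew from 1.4 and 1.2 kb to 3.4 and 3.6 kb, and from a new intronic island at 15 kb of 2.4 and 2.2 kb. With SETD5 at 48 h the former measured 1.4 and 1.2 kb and the latter 1.4 and 1.4 kb. The SETD5 0 h lists alone held a pair of islands at 41 and 45 kb upstream of the gene, beyond Ddb2, with 2.2 and 2.8 kb and 2.0 and 2.0 kb. With windows of 25 kb, which leave that pair out, the change in the SETD5 cells was −0.05 (adjusted p = 0.891 in limma).

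In the Ppara window the length came from intergenic DNA upstream. No island of any of the 16 lists touched a Ppara start site. The empty-vector 48 h lists held an island of 7.2 and 7.0 kb at 30 to 31 kb upstream that was present in none of the other 6 H3K27ac lists. An island at the upstream edge of the window, centred 48 to 51 kb from the gene and reaching past the edge, was present in all 8 lists. It measured 4.2 and 3.6 kb at 0 h and 14.0 and 6.4 kb at 48 h in the empty vector, and 5.2 and 6.0 kb, then 6.6 and 5.6 kb, with SETD5. The other island common to all lists lay at the start site of a neighbouring gene, 2210021J22Rik, about 77 kb downstream of the Ppara 5′ end.

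**Figure D3:**
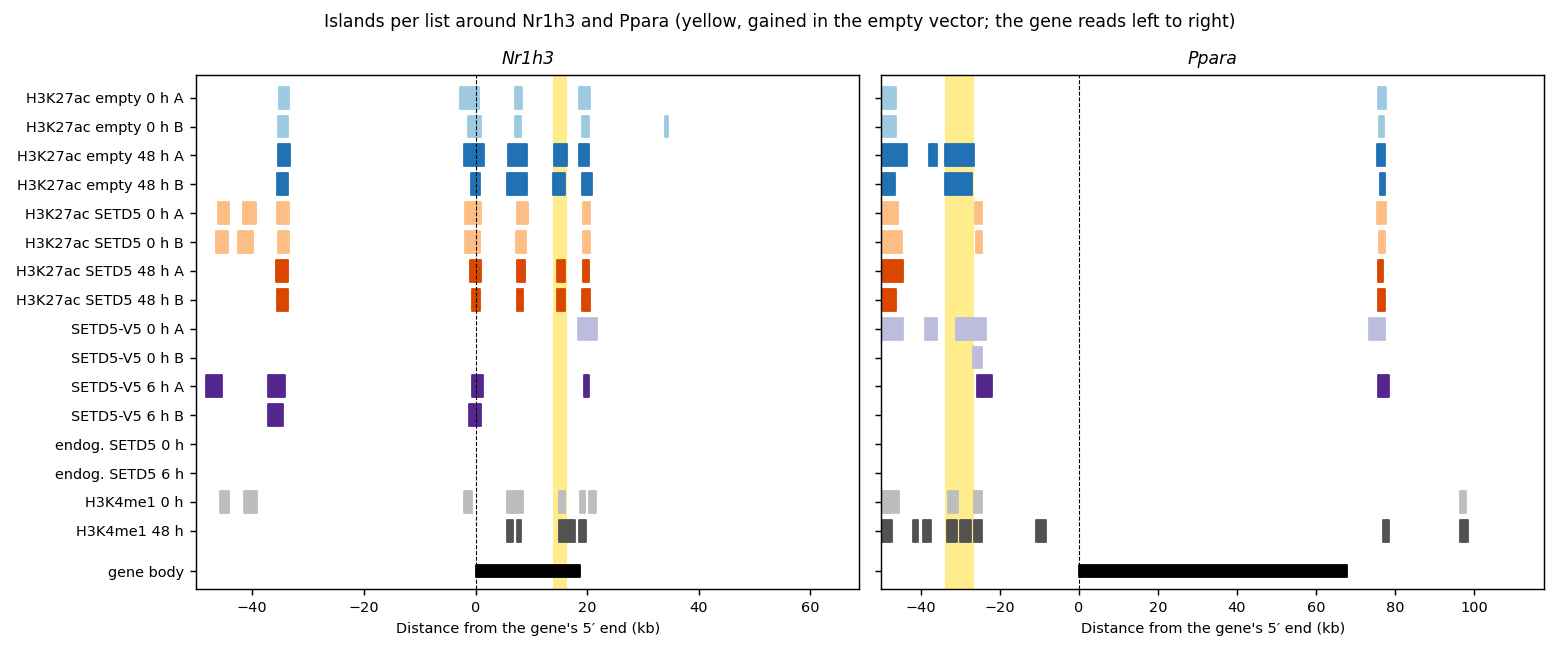
Islands of all 16 lists (rows) around Nr1h3 and Ppara, plotted by distance from the gene's 5′ end in kb (x axis), with the gene body in black. Yellow bands mark regions with H3K27ac in both empty-vector 48 h lists and neither empty-vector 0 h list; the band upstream of Ppara, at about −30 kb, is empty in both SETD5 48 h rows.

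Ppard encodes PPARδ, the widely expressed PPAR of fatty acid catabolism. Its window had 27.2 and 28.8 kb of H3K27ac in the empty-vector 0 h lists, 38.8 and 34.4 kb at 48 h, 31.0 and 33.8 kb in the SETD5 0 h lists and 29.0 and 36 kb at 48 h. The empty-vector libraries did not overlap between times, and their log2 change of 0.38 ± 0.13 missed the threshold (adjusted p = 0.0636 in limma). The highest-scoring islands of this window were those at Tead3 and Rpl10a, not at Ppard. The longest island at a Ppard start site measured 1.6 and 5.2 kb at 0 h and 7.8 and 7.4 kb at 48 h in the empty vector, and 5.6 and 5.8 kb, then 6.2 and 8.6 kb, with SETD5.

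Vdr was the only member to gain H3K27ac in the SETD5 cells beside Rxra. Its product binds the hormonal form of vitamin D and is known to restrain adipogenesis in 3T3-L1 cells. The gene lies at chr15:97684856-97741061 on the minus strand. The window had 47.6 and 37.2 kb in the empty-vector 0 h lists, 57.8 and 53.6 kb at 48 h, 37.2 and 45 kb in the SETD5 0 h lists and 70.6 and 66.8 kb at 48 h. The 48 h libraries were above the 0 h libraries in both vectors, and the SETD5 48 h libraries above all others. The log2 change was 0.40 ± 0.15 in the empty vector (adjusted p = 0.0779 in limma) and 0.74 ± 0.15 in the SETD5 cells (adjusted p = 0.0134 in limma). The difference between these changes, 0.34 ± 0.21, did not pass the threshold (adjusted p = 0.423 in limma), and the call in the SETD5 cells was lost without SETD5 0 h replicate A, 48 h replicate A or 48 h replicate B (adjusted p = 0.0628 to 0.0801 in limma).

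The highest-scoring H3K27ac island of the Vdr window lay at Hdac7, the next gene downstream, in all 8 lists. The longest island at a Vdr start site measured 6.2 and 5.0 kb in the empty vector at 0 h and 8.2 and 6.0 kb at 48 h, and 4.6 and 3.0 kb, then 7.4 and 7.6 kb, with SETD5. For the highest-scoring island at a Vdr start site, 16.2% and 9.59% of islands scored higher in the empty-vector 48 h lists, and 3.92% and 4.54% in the SETD5 48 h lists.

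COUP-TFII, the product of Nr2f2, is a repressor of adipogenesis that is abundant in preadipocytes. Its window held 25.8 and 26.4 kb of H3K27ac in the empty-vector 0 h lists, 24.8 and 25.8 kb at 48 h, 29.2 and 31.4 kb in the SETD5 0 h lists and 28.0 and 29.2 kb at 48 h. All 8 values lay close together, and the log2 changes of −0.05 ± 0.09 in the empty vector and −0.08 ± 0.09 with SETD5 did not pass the threshold (adjusted p = 0.722 and 0.549 in limma). A single island of 18.2 to 19.4 kb covered a start site of the gene in each of the 8 lists. At 0 h in the empty vector 0.157% and 0.124% of islands scored higher than it, and at 48 h 0.355% and 0.356%.

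Esrra and Rora complete the set. ERRα is an orphan receptor that works with PGC-1 coactivators on mitochondrial genes. Its window had 20.9 and 18.6 kb of H3K27ac in the empty-vector 0 h lists, 25.5 and 21.2 kb at 48 h, 17.6 and 18.7 kb in the SETD5 0 h lists and 20.8 and 21.1 kb at 48 h, with no call in any contrast. It overlaps 7 other genes, and its highest-scoring island lay at Bad in 7 of the 8 lists.

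RORα has by far the longest gene of the set, with a window of 834 kb around chr9:68501593-69236053 (plus strand) that was sparsely covered. The window had 12.8 and 7.6 kb of H3K27ac in the empty-vector 0 h lists, 22.9 and 15.8 kb at 48 h, 13.2 and 13.4 kb in the SETD5 0 h lists and 12.2 and 15.0 kb at 48 h. Its highest-scoring island lay at Narg2, downstream of Rora, in all of these lists but empty-vector 48 h replicate A. The empty-vector libraries did not overlap between times, and the log2 change was 0.93 ± 0.28 (adjusted p = 0.0428 in limma), against 0.02 ± 0.28 with SETD5 (adjusted p = 0.975 in limma). The difference between the changes, −0.91 ± 0.40, did not pass the threshold (adjusted p = 0.279 in limma), and the empty-vector call was lost in 6 of the 8 fits that left out a library (adjusted p = 0.0688 to 0.203 in limma).

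H3K27ac at Rora start sites varied between the lists. Neither empty-vector 0 h list had H3K27ac at a Rora start site. At 48 h both empty-vector lists had islands at start sites deep inside the gene, at 541 kb (2.8 and 1.8 kb) and at 636 kb (4.4 and 3.0 kb) from the first, and only replicate A had one, of 1.6 kb, at the first. Both SETD5 48 h lists had an island at the first start site (1.8 and 2.0 kb) and none at the inner start sites. The SETD5 0 h lists already had an island at the first start site (0.8 and 1.8 kb), and replicate A also had one at the inner start at 636 kb (2.0 kb). Next to that inner start, within the gene but outside the span counted as a start site, the SETD5 48 h lists had islands of 600 and 800 bp, SETD5 0 h replicate B had one of 1000 bp and empty-vector 0 h replicate A had one of 2400 bp. These are descriptions of 2 lists each, with no test.

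Across the set, 7 of the 10 genes carried H3K27ac at a start site at 0 h in the empty vector and 8 in each of the other 3 H3K27ac conditions, with A and B alike, where 46.7% to 49.6% of all protein-coding genes did in a list. Rxrg and Ppara were the members without one in any list.

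Joining the 8 H3K27ac lists gave 79 regions in the members' windows and 53157 in the genome. A region was called gained when both empty-vector 48 h lists and neither 0 h list held it, and lost in the reverse case. In the members' windows 10 regions were gained and 3 lost, and 4 of the 10 gained regions were missing from both SETD5 48 h lists. In the genome 5863 regions were gained, of which 24.2% were missing from both SETD5 48 h lists, and 7472 were lost. The 4 were at Ppara, at Ppard and, as a pair, at Rora. The share missing with SETD5 depended on the setting. With equal numbers of highest-scoring islands it was 33.3% of the members' 12 gained regions, against 34.3% in the genome. With islands above the median score it was 37.5% of 8, against 24.1%. At Rxrg 2 regions were lost, at 46 and 51 kb from the gene's 5′ end, and both were also missing from the SETD5 48 h lists. So were 4764 of the 7472 lost regions of the genome.

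Counted in steps of 200 bp, a measure chosen after seeing the data because long regions hide growth within them, 53.2 kb were gained at Rxra, 10.6 kb at Vdr, 6.8 kb at Ppara, 6.8 kb at Rora, 6.2 kb at Ppard, 4.0 kb at Nr1h3 and 2.2 kb at Esrra, and none at Rxrb, Rxrg and Nr2f2. The members differed in how much of this was missing with SETD5. Both SETD5 48 h lists lacked all of the gained length at Ppara, 85.3% at Rora and 55.0% at Nr1h3, but 14.7% at Rxra and 3.77% at Vdr. Over the 10 windows this was 28.1% of 89.8 kb, and over the genome 30.8%. The pooled share leans on Rxra, with 53.2 of the 89.8 kb gained but 7.8 of the 25.2 kb missing with SETD5. H3K4me1 was already present at 0 h on 51.7% of the gained length of the members and on 27.4% of that of the genome. Rxra held 32.2 of these 46.4 kb, which is 60.5% of its own gained length, and Rora had 0.0%.

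The gained regions were searched on both strands for the letters of a DR1 element, the direct repeat that PPAR and RXR pairs bind, written here as AGGNCA, any 1 base and AGGNCA again. Of the 10 gained regions 4 held a match, with 5 matches in all, against 8.22% of all 5863 gained regions; with AGGTCA in both places none of the 10 did, against 0.972%, and none held the DR4 letters, AGGTCA, any 4 bases and AGGTCA, bound by LXR and RXR pairs, against 0.273%. The gained stretches of 200 bp steps, searched after seeing the data, added 2 matches at Rxra. The matches are printed because they lie in regions or stretches called gained. The intronic Vdr match and the nearer upstream Vdr match were not themselves under H3K27ac in both empty-vector 48 h lists. Capitals mark the DR1 letters, each with 24 bases of mm9 on either side, 5′ to 3′ on the strand of the match.
Ppara, chr15:85534372-85534384, 31.0 kb upstream, intergenic, minus strand: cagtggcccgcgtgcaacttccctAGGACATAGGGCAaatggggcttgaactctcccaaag
Rora, chr9:69043436-69043448, at the inner start site 542 kb into the gene, plus strand: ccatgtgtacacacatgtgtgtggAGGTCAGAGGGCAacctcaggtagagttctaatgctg
Vdr, chr15:97704198-97704210, intron, minus strand: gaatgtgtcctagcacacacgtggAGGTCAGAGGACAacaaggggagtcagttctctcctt
Vdr, chr15:97780980-97780992, 39.9 kb upstream, intergenic, plus strand: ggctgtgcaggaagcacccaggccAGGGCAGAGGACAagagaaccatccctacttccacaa
Vdr, chr15:97783127-97783139, 42.1 kb upstream, intergenic, minus strand: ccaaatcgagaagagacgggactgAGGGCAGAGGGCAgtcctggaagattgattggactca
Rxra, chr2:27482225-27482237, 49.7 kb upstream, intergenic, minus strand: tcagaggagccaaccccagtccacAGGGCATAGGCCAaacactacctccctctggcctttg
Rxra, chr2:27543133-27543145, intron, plus strand: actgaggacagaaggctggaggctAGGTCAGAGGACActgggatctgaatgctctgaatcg

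Of the 8 H3K27ac lists, the 2 of the empty vector at 48 h alone covered the Ppara and Rora matches, and the Ppara match was also under H3K4me1 at both times. The Vdr match 42.1 kb upstream was under H3K27ac in both 48 h lists of both vectors, and under SETD5-V5 in both 6 h lists. The other upstream Vdr match lay within its gained region but was covered in replicate A only, and the intronic Vdr match in the SETD5 48 h lists only. The intronic Rxra match was covered in all H3K27ac lists but those of the empty vector at 0 h, and the upstream Rxra match in those of the empty vector at 48 h and in SETD5 48 h replicate B. The C/EBP letters TTGCNNAA, for the factors that act before PPARγ, were found in 6 of the 10 gained regions and in 82.3% of all gained regions. A match of letters shows neither a bound factor nor a working site. No DR1 letters occurred in the RefSeq promoter sequences (GRCm38.p6) of the 10 genes, as in all but 0.381% of 32851 promoters.

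SETD5 itself was most extended at Vdr. SETD5-V5 covered 84.9 and 36.8 kb of the Vdr window of 156 kb at 0 h (A and B) and 149.2 and 144.7 kb at 6 h, which was 95.5% and 92.7% of the window. At 6 h 0.0402% and 0.0492% of all protein-coding windows had a larger covered share. The endogenous protein covered 4.6 kb at 0 h and 80.4 kb at 6 h, with 0.268% of windows above it at 6 h. A single SETD5-V5 island of 87.0 and 103.4 kb lay over the Vdr start site at 6 h, against 5.0 kb in A and none in B at 0 h, and the endogenous island there grew from 4.6 to 63.2 kb. Both antibodies thus gave a longer Vdr island at 6 h, although the endogenous SETD5 lists have no replicate.

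**Figure D4:**
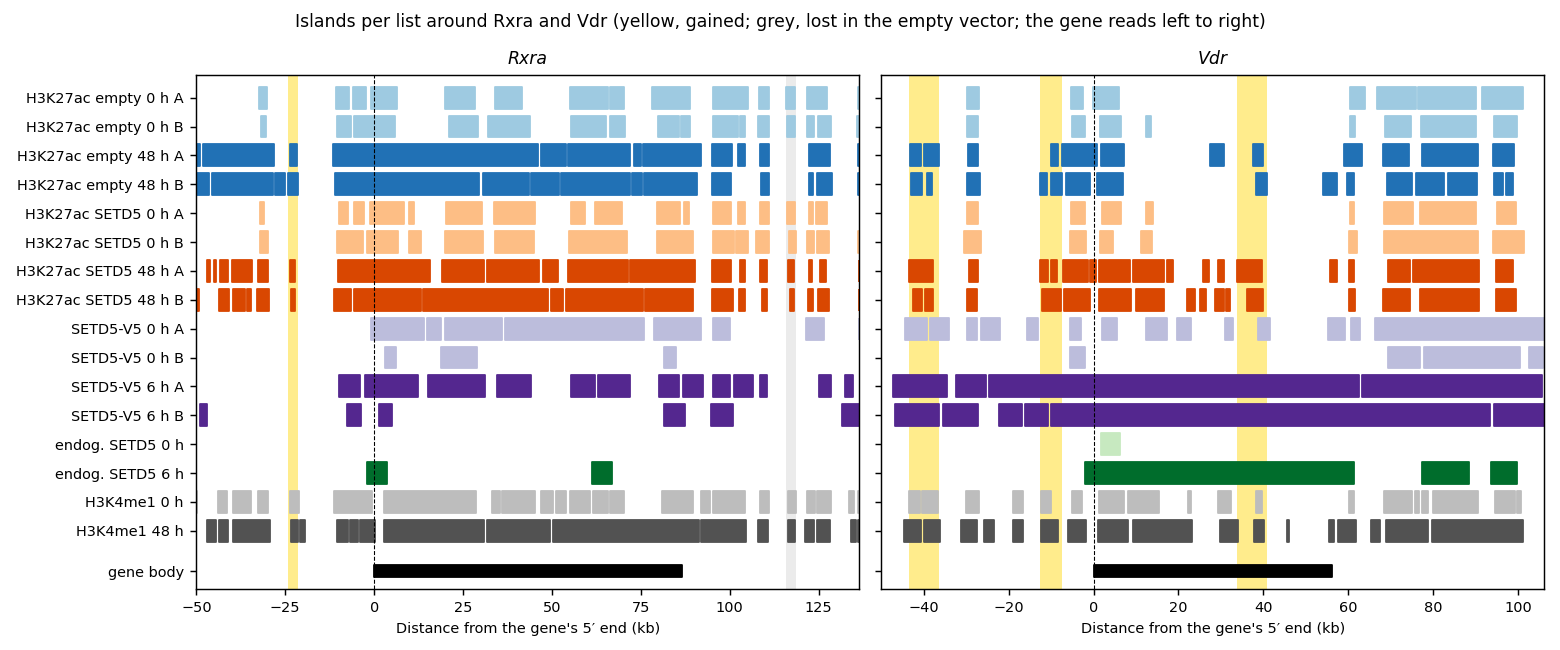
Islands of all 16 lists (rows) around Rxra and Vdr, plotted by distance from the gene's 5′ end in kb (x axis), with the gene body in black and gained (yellow) and lost (grey) regions of the empty vector. SETD5-V5 at 6 h spans nearly the whole Vdr window, and H3K27ac at 48 h joins into long islands over Rxra.

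Despite these lengths, no member passed the threshold for SETD5-V5 at 6 h against 0 h in either direction, where 21.9% of the 13838 windows tested were higher and 0.123% lower (0 members at an unadjusted p under 0.05 in limma in either direction). Rxrg was not tested, since only 1 SETD5-V5 list had an island in its window. The median log2 change was 1.11 over the 9 members tested and 2.78 over all windows, and 1.78 over all windows after scaling to the total covered length. The value for Vdr was 1.39 ± 0.50 (adjusted p = 0.202 in limma), below the median of all windows. These values are not directly comparable, since the Vdr window was nearly filled at 6 h, which limits its change. At 0 h 47.2% (A) and 27.4% (B) of all protein-coding windows had any SETD5-V5, and growth from 0 gives large log2 changes. The largest value, 3.01 ± 1.79 at Nr1h3 (adjusted p = 0.338 in limma), came from 3.4 kb and 0 at 0 h and 8.8 and 5.0 kb at 6 h. The 0 h libraries differed from each other by more than the times did at several members: without 0 h replicate A, 76.6% of all windows and 5 of the 9 members were called higher.

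At Rxra SETD5-V5 was shorter at 6 h in A and longer in B. It covered 97.3 and 16.6 kb at 0 h and 91.4 and 26.7 kb at 6 h (A and B), so the replicates differed far more than the times, and the endogenous protein covered 0 and 11.2 kb. At Nr2f2 SETD5-V5 covered 18 and 17.6 kb at 0 h and 47.2 and 28.8 kb at 6 h, and the island over its start site lengthened from 16.6 and 12.8 kb to 34.0 and 25.6 kb. The endogenous island there measured 4.4 kb at 0 h and 12.4 kb at 6 h. Ppard had 32.0 and 18.6 kb at 0 h and 69.6 and 40.4 kb at 6 h, Rxrb 12.2 and 4.8 kb, then 14.4 and 13.6 kb, and Esrra 33.2 and 3.0 kb, then 39.9 and 25.3 kb.

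Ppara had 20.2 and 2.2 kb of SETD5-V5 at 0 h but 6.6 and 0 kb at 6 h, and its island in the gained upstream region was listed at 0 h only (4.6 kb of that region in A, 0.2 kb in B). The Rora window had 1.6 and 0 kb, then 4.6 and 1.4 kb, and Rxrg 0 and 0 kb, then 3.0 and 0 kb. The SETD5-V5 islands of the Rora window lay at the neighbouring gene Narg2, about 778 kb from the Rora 5′ end and beyond the Rora gene body. The endogenous SETD5 lists held no island for Ppara, Rora, Rxrg or Nr1h3 at either time. SETD5-V5 covered 98.1% of the gained H3K27ac length at Vdr in both 6 h lists, 81.8% of that at Esrra, 29.0% of that at Ppard, 1.13% of that at Rxra and 0.0% of that at Ppara, Nr1h3 and Rora. This was 16.3% over the 10 members, against 36.5% over the genome. The pooled share leans on Rxra, which held 53.2 of the 89.8 kb gained but 0.6 of the 14.6 kb under SETD5-V5.

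**Figure D5:**
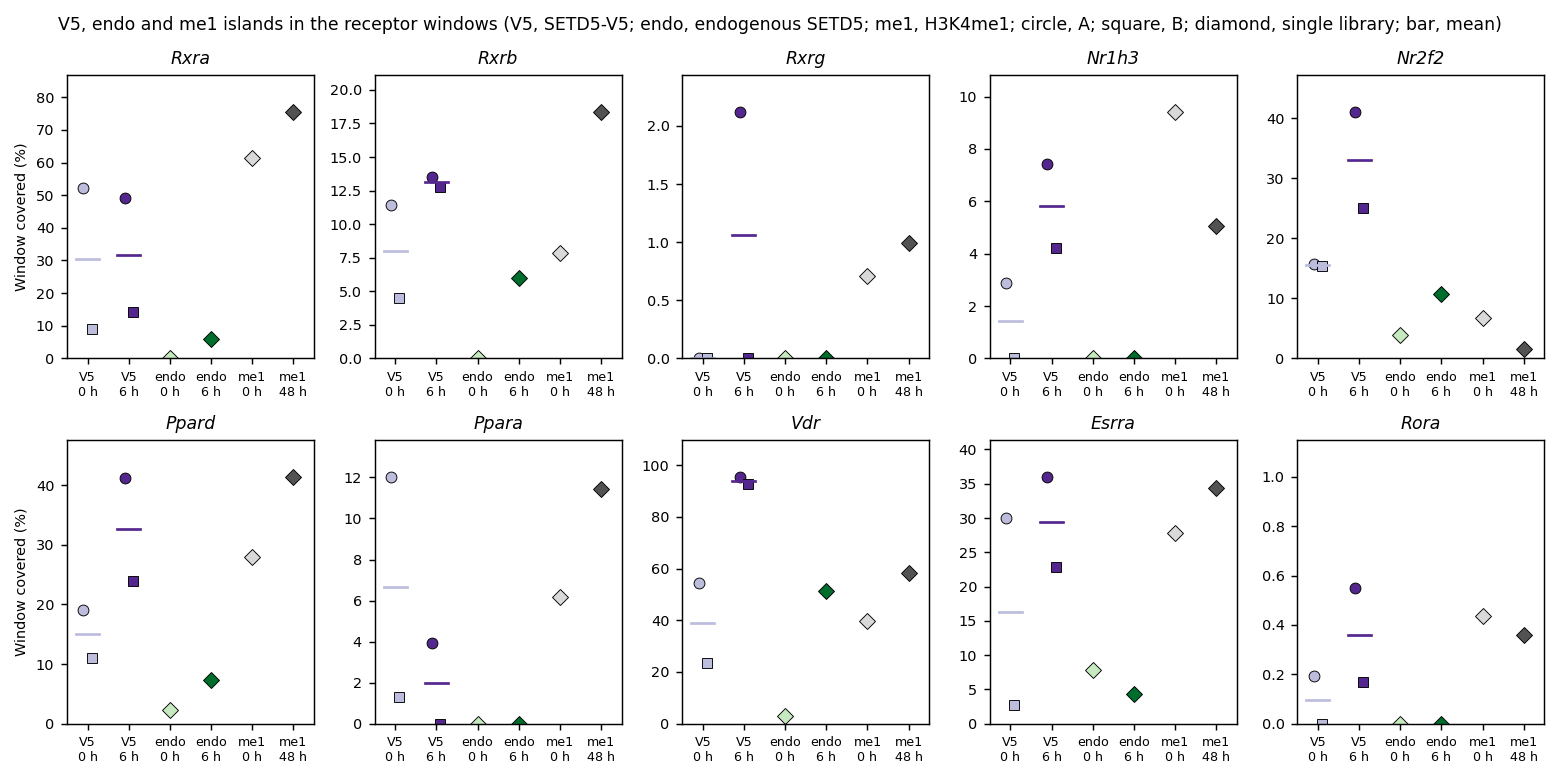
Share of each receptor window covered (y axis, %, from 0) by SETD5-V5 and endogenous SETD5 at 0 h and 6 h and by H3K4me1 at 0 h and 48 h (x axis). Circles are replicate A, squares replicate B, diamonds conditions with 1 library and bars the mean of A and B; the Vdr panel reaches 95.5% and 92.7% with SETD5-V5 at 6 h.

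H3K4me1 had 1 library per time and therefore no replicate check, and its whole lists covered 123 Mb at 0 h and 133 Mb at 48 h. It covered 61.8 and 91.2 kb at Vdr, 47.0 and 69.8 kb at Ppard, 8.4 and 19.6 kb at Rxrb, 30.8 and 38.0 kb at Esrra, and 10.4 and 19.2 kb at Ppara (0 h and 48 h). It was shorter at 48 h at Nr1h3, with 11.2 and 6.0 kb, at Nr2f2, with 7.8 and 1.8 kb, and at Rora, with 3.7 and 3.0 kb, and Rxrg had 1.0 and 1.4 kb. Nr2f2, covered by some of the highest-scoring H3K27ac islands, had no H3K4me1 island at a start site at either time.

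The rest of the receptor family was counted for comparison. Of 38 other nuclear receptor genes 32 could be tested for H3K27ac, and 9 rose and 7 fell from 0 h to 48 h in the empty vector, where 23.3% of all windows rose and 12.9% fell, with a median log2 change of 0.18 against 0.15 for all windows. Pparg, the receptor that commits cells to fat, was among the 9, with 127.6 and 99.4 kb at 0 h and 181.4 and 165.4 kb at 48 h (log2 change 0.62 ± 0.15, adjusted p = 0.0182 in limma). Others that rose included Esrrg, Hnf4a, Thra, Rara and Nr4a1, and those that fell included Nr3c2, Esr1 and the glucocorticoid receptor gene Nr3c1. With SETD5 against the empty vector at 48 h, 4 were higher (Nr3c2, Nr2e3, Esr1 and Rarb) and 3 lower, among them Esrrg and Hnf4a, against 6.06% and 6.66% of all windows. In the SETD5 cells 4 rose (Hnf4a, Rarb, Nr4a1 and Rorb) and 6 fell, among them Esr1, Nr1i2 and Nr3c1, against 14.2% and 11.0% of all windows. Nr1i2 was higher with SETD5 at 0 h, as were 1.42% of all windows. It had 0.51 and 0.71 kb in the SETD5 0 h lists and none in any other H3K27ac list. Nr1i2 was therefore tested only through the group in which it was high, and its fall in the SETD5 cells rests on the same lengths.

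Textbook target genes of these receptors were the other list. Of 21 targets, all tested, 14 rose and 0 fell from 0 h to 48 h in the empty vector, where 23.3% of all windows rose and 12.9% fell, with a median log2 change of 0.82 against 0.15 for all windows (among them Fabp4, Abca1, Plin2, Pdk4, Lpl, Srebf1, Abcg1, Angptl4, Cpt1a and Scd1). In the SETD5 cells 8 rose (among them Fabp4, Abca1, Pdk4, Abcg1 and Scd1) and 1 fell, Cd36, the fatty acid transporter gene, with a median of 0.38 against 0.0 for all windows, of which 14.2% rose and 11.0% fell. At 48 h 7 were lower with SETD5 (among them Fabp4, Plin2, Cd36, Lpl and Scd1) and 0 higher, with a median of −0.28 against −0.07 for all windows, of which 6.66% were lower and 6.06% higher. Fabp4, the fatty acid binding protein of adipocytes, had 2.6 and 2.8 kb, then 29.1 and 23.0 kb, in the empty vector and 6.0 and 5.4 kb, then 9.8 and 11.0 kb, with SETD5. It was the only target whose 48 h changes differed between the vectors at the threshold (−2.32 ± 0.23, adjusted p = 0.00711 in limma), and the only target higher with SETD5 at 0 h (1.02 ± 0.17, adjusted p = 0.0338 in limma). For SETD5-V5, 6 of 26 tested receptors (Esrrg, Nr2e3, Esr1, Nr1h4, Nr2c1 and Rorb) and 7 of 21 targets (among them Cyp24a1, Fabp4, Plin2 and Abcg1) were higher at 6 h and none lower, where 21.9% of all windows were higher and 0.123% lower. Their median log2 changes were 2.35 for the receptors and 3.28 for the targets, against 2.78 for all windows. Each gene called higher had no SETD5-V5 island in either 0 h list. Such genes entered the test through the 6 h lists alone, so these calls mark windows that were empty at 0 h. Among receptors the vectors' 48 h changes differed at Nr2e3 and Esr1, which were higher with SETD5, and at Nr1i2, which was lower. Of all windows, 2.13% were higher and 2.41% lower in this test. The Nr1i2 call rests on 0.51 and 0.71 kb in the SETD5 0 h lists alone.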

How the data were processed

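ChIP-seq lists of 16 libraries of 3T3-L1 cells were used. The authors mapped reads to mm9 (the tools named with the deposited data are Bowtie2, SICER and deepTools, and the study's methods also name ELAND) and called islands per library with SICER, with a wider allowed gap for SETD5 than for the histone marks, without pooling replicates. Whether an input library was subtracted is not given in the sources used here. Each deposited file gives position and a SICER score, whose scale differs between libraries, so scores were used only as ranks within a list. Shorter islands in 1 list than in another can come from fewer reads as well as from less enrichment. Windows and start sites came from GENCODE annotation of mm9, and a start site ran from 1000 bp before to 100 bp after each annotated start.

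Covered length was tested as log2(bp + 200) with limma 3.58.1 (R 4.3.3, trended prior, Benjamini-Hochberg, threshold 0.05) over all protein-coding windows with coverage in at least 2 libraries. The 8 H3K27ac libraries shared 1 fit of group means, and the 4 SETD5-V5 libraries another. With 2 against 2 libraries an exact permutation test cannot go below 0.333. The fit was tested on simulated data with planted changes before use. In the empty-vector contrast it called 18% of planted log2 changes of 1 and 63% of those of 2, and 1.22% of its calls were false. Each size was planted in 100 of 17882 windows, all well covered, with spreads shuffled between windows. In the real contrast 23.3% of windows were called higher and 12.9% lower. The simulated shares therefore do not give the power or error of the real fit. A window without a call may still have changed. The members, lists and tests were chosen with earlier results of these data known. By the rule for named genes, all 10 members are given with their covered length, fold changes are given for called members and for the largest change of each contrast, members beyond that rule are given so that each is described, and genes of the other lists that passed are counted, with some of them named and some not reported here by name. Regions used an overlap of at least 1 bp. H3K4me1 and endogenous SETD5, with 1 library per time, were not tested. Alternatives changed the flank, pseudocount, filter, prior, scaling, island score minimum, overlap and start-site span, replaced length by number of islands, added the replicate as a block and left out each library.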

Additional observations from a re-analysis of the deposited data

Results flagged for a closer look

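The change of H3K27ac covered length from 0 h to 48 h differed between the vectors in 2 of the 10 receptor windows. By the test of this difference both were lower with SETD5, where 2.41% of all windows were, and 0 were higher, where 2.13% were. At Nr1h3 the difference, SETD5 minus empty vector, was −1.29 ± 0.21 on the log2 scale (SE, adjusted p = 0.0254 in limma), and at Ppara it was −1.83 ± 0.35 (adjusted p = 0.0405 in limma). Over the alternatives run the adjusted p ranged from 0.0116 to 0.249 for Nr1h3 and from 0.0172 to 0.677 for Ppara in limma. The difference was negative under all of them, but the call was lost in 10 of 19 for Nr1h3 and in 11 of 19 for Ppara.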

How the results depend on the processing

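Of 279 alternatives run on the members' named changes, 204 kept direction and were called or not as in the main fit. Another 69 kept direction and lost the call, 2 gained one and 4 reversed. The 204 include 17 for Nr1h3 between vectors at 0 h and 12 for Nr1h3 in SETD5-V5, changes not called in the main fit. The 279 include fits without a library outside the contrast, which can alter its error but not its estimate. The cause was not tested except where the setting itself removes islands or libraries. The reversals were Rxra in the empty vector by number of islands (−0.0935), Nr1h3 in the empty vector with 100 kb flanks (−0.0805), Nr1h3 in the SETD5 cells with islands above the median score (0.26) and Nr1h3 between vectors at 0 h with 25 kb flanks (−0.0149). The member counts that follow, those of fits without a library included, are given without the share of all windows called in the same setting. They show only which calls of the members held. In the SETD5 cells the members gaining fell to 1 with no filter, and the members losing to 0 with islands above the median score and to 1 with 25 kb flanks or by number of islands. At 0 h 1 member, Nr1h3, was higher with SETD5 after scaling to total covered length. At 48 h 1 member was higher with islands above the median score, while those lower numbered 0 with no filter and 1 with 25 kb flanks, 100 kb flanks, number of islands or a constant prior. Under the difference between the changes, 0 members were lower with islands above the median score, 25 kb or 100 kb flanks, and 1 with no filter or number of islands. For SETD5-V5 1 member was higher with equal numbers of islands. With 100 kb flanks 6 regions were lost. With 2500 bp around start sites 4 members had SETD5-V5 in both 0 h lists, against 1, and with AGGTCA in both places of the DR1 letters 0 gained regions matched.

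With the replicate block 1 member was lower with SETD5 at 48 h, and Nr1h3 was not called (adjusted p = 0.0561 in limma). The replicate letters were not shown to pair the libraries: deviations from the group means of same-lettered H3K27ac libraries correlated by −0.024 to 0.105, and those of the SETD5-V5 libraries at 0 h and 6 h by 0.194. The block changed no other call among the members.

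Leaving out a library gave 2 to 5 members higher and 1 lower in the empty vector, 0 to 2 higher and 0 to 2 lower in the SETD5 cells, 0 to 2 lower with SETD5 at 48 h, 0 to 2 lower by the difference between the changes, and 0 to 5 higher for SETD5-V5 (5 without 0 h replicate A). Leaving out replicate A or B gave 3 to 7 lost regions. The island lists hold no counts, and the total reads that the study lists were not set against them.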
